A study of Oryza sativa with 24 samples.

Results

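Untreated anthers of the rice line PL9 were compared with untreated anthers of Nipponbare, the temperate japonica variety on which the rice reference genome is based. The comparison took the 3 PL9 and the 3 Nipponbare libraries without treatment, 6 of the 24 libraries of a study of 4 lines grown with or without cold. It covered every gene whose identifier stands on 1 row of the deposited tables and that reached 1 in 3 or more libraries, 22495 genes in all. Plants of both lines were raised under glass with days of 25 °C and nights of 19 °C, 20 plants sharing a pot, with only the main stem kept, and their anthers were taken at the booting stage. The cold libraries of both lines, used below as a second look at the line difference, came from plants held at 12 °C for 4 days. Per the labels, cold began at the early microspore stage, and nothing in the labels says when untreated anthers were collected relative to it. The titles number 3 libraries in each group, whereas the series text speaks of 2 replicates. No label ties libraries to separate plants, and the p-values therefore reflect the scatter between libraries of a group, pooled over all 24 libraries of the study, which could be technical.

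In the anther, meiocytes divide into tetrads of microspores inside a nurse layer, the tapetum. The tapetum secretes enzymes, lipid transfer proteins and precursors of sporopollenin, the polymer of the outer pollen wall, and then degenerates by programmed cell death. A cascade of basic helix-loop-helix factors and the PHD-finger protein PTC1 controls these steps in rice. In bulk anther RNA, fewer cells of a type and less RNA per cell cannot be told apart.

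Values are the deposited abundances, named TPM in the file headers but with column totals above the fixed sum of a TPM column, and differences are PL9 minus Nipponbare on the log2(value + 1) scale with their standard errors (SE). The depth of the libraries is unknown. Between 17865 and 18211 identifiers had a value of at least 1 in the PL9 libraries, and between 18979 and 19303 in the Nipponbare libraries. The share of the total held by the top 20 identifiers was 13.8% to 18.5% in PL9 and 9.6% to 10.9% in Nipponbare. Median correlations with libraries of the same group were 0.963 to 0.971 in PL9 and 0.958 to 0.970 in Nipponbare, against 0.824 to 0.861 between the lines. Among the cold libraries, PL9 libraries 1 and 2 stood apart, with own-group correlations of 0.905 and 0.891 against 0.941 for PL9 library 3 and 0.960 to 0.963 for Nipponbare. The tissue label was checked against marker genes. The 3 stamen identity genes measured summed to between 1631 and 2145 in PL9 and between 2554 and 2842 in Nipponbare. The 4 carpel and outer floret markers measured summed to 1.78 to 3.10 in PL9 and 3.86 to 6.34 in Nipponbare, and the 2 markers of green tissue to 61.3 to 102 and 147 to 414 in the same order of lines. No marker measured was at 0 in all 3 libraries of either line. The part of other floral or green tissue in the results below was not tested.

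Of the 22495 genes, 7191 (32.0%) passed an adjusted p of 0.05 in limma. In PL9, 3010 were higher (13.4% of genes tested) and 4181 were lower (18.6%). The larger differences leaned further to the low side in PL9, since 131 of the genes called were higher by at least 3 on the log2 scale and 391 were lower by at least 3. Over all genes tested the median difference was -0.04, and the median SE was 0.25. The balance between the directions depended on scaling. Of the calls, 41.9% were higher and 58.1% lower in PL9 with the values as deposited, and 56.8% were higher and 43.2% lower after quantile normalization, which moved the median of all genes by 0.13. The 3 values of each line did not overlap in 11010 genes (48.9%), 6940 of them called. Where a gene was called higher in PL9, PL9 library 3 was the lowest of the PL9 libraries in 1424 of 3010 genes, against 678 for library 1 and 908 for library 2. Among the 4181 genes called lower, the lowest Nipponbare library was library 3 in 1667, library 2 in 1550 and library 1 in 964.

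CYP703A3, a gene of pollen wall synthesis, the lipid transfer gene OsC4 and 3 protease genes of the tapetum were lower in PL9. Of the 7 measured members of this list, 5 were lower, 1 was higher and 1 did not pass, with a median difference of -3.62, against 18.6% lower, 13.4% higher and a median of -0.04 over all genes tested. With entries whose names could not be checked kept, 13 of 21 measured were lower, 2 were higher and 6 did not pass. CYP703A3 (Os08g0131100, chromosome 8), the cytochrome P450 that hydroxylates fatty acids for sporopollenin and cutin, had values of 0.570, 0.380 and 0.566 in PL9, against 392, 172 and 391 in Nipponbare. All PL9 values lay below 1 and the lines did not overlap, a difference of -7.63 (SE 1.47, adjusted p = 0.000696). OsC4 (Os08g0546300), a tapetal lipid transfer protein, had 7.78, 35.9 and 40.3 in PL9, against 1163.2, 809 and 1103.3 in Nipponbare (difference -5.42, SE 0.84, adjusted p = 0.000103).

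The proteases of tapetal cell death fell as well. OsAP25 (Os03g0186900), an aspartic protease that promotes tapetal cell death, had 0.451, 0.836 and 0.568 in PL9, against 101, 33.8 and 240.0 in Nipponbare, with no overlap (difference -5.88, adjusted p = 0.00228). The cysteine protease gene CP1 (Os04g0670500) fell by 3.62 (adjusted p = 0.00147). Its values were 1.64, 1.73 and 0.759 in PL9 and 25.0, 22.8 and 36.8 in Nipponbare. OsAP37 (Os04g0448500), the second aspartic protease of the list, had a difference of -3.54 (adjusted p = 0.0365), a call that ended in 5 of the 6 fits without 1 untreated library (all but the one without Nipponbare library 2), where adjusted p reached 0.153. Products of the tapetum did not all follow. RAFTIN1, a protein of the Ubisch bodies that line the tapetum, was higher in PL9, averaging 2022.8 in PL9 and 889 in Nipponbare (difference 1.19, adjusted p = 0.00221). OsC6, another lipid transfer protein, averaged 9326.7 in PL9 and 5439.3 in Nipponbare and did not pass (adjusted p = 0.474). Summed over the 9 tapetum markers measured, 2 of them higher and 4 lower in PL9, levels overlapped, at 5699.5 to 18387.4 in PL9 and 6274.6 to 9694.7 in Nipponbare. OsC6 alone had 3903.1, 7726.5 and 16350.4 in PL9 and 5303.4, 4399.5 and 6615.0 in Nipponbare. The sums thus mostly follow OsC6 and cannot show whether the other markers were alike.

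**Figure D1:**
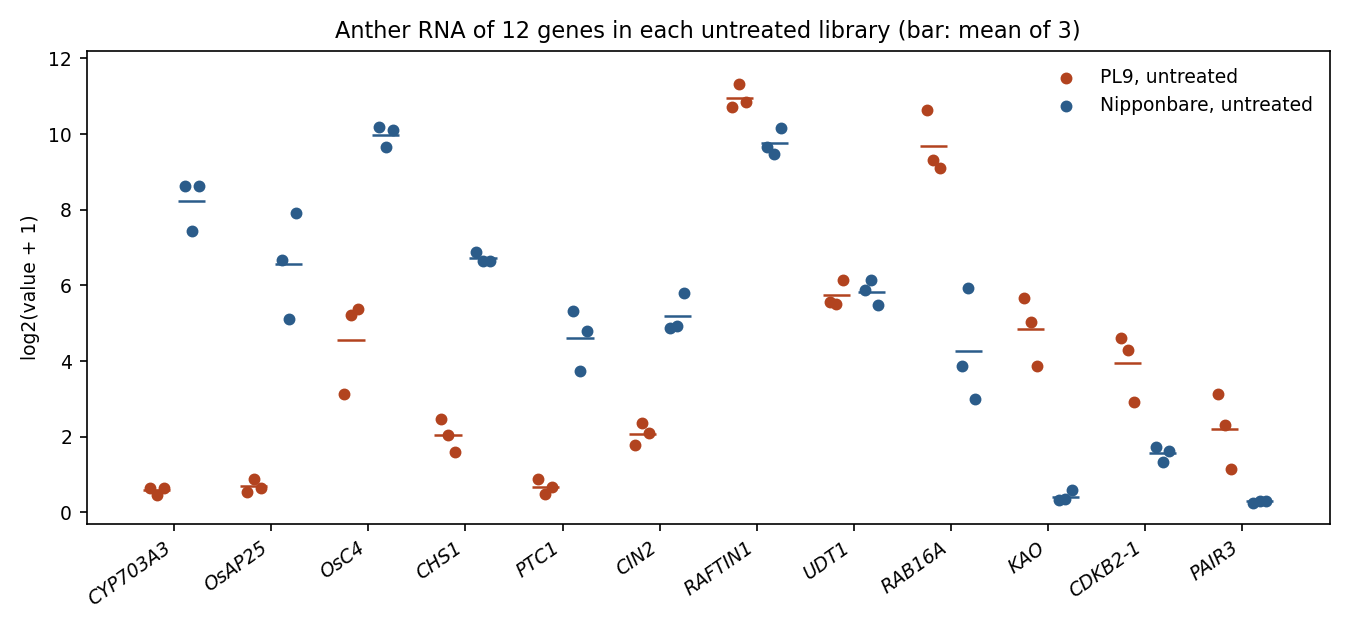
Each point is 1 untreated library on the log2(value + 1) axis, PL9 left and Nipponbare right for each of 12 genes, with a bar at the mean of 3. CYP703A3, OsAP25, OsC4, CHS1, PTC1 and CIN2 lie lower in PL9 without overlap, RAFTIN1, RAB16A, KAO, CDKB2-1 and PAIR3 lie higher without overlap, and UDT1 overlaps.

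Among regulators of the tapetum, the late factor PTC1 differed most. PTC1 (Os09g0449000), which controls tapetal degeneration and pollen wall formation, had 0.846, 0.395 and 0.584 in PL9, against 39.0, 12.4 and 26.6 in Nipponbare (difference -3.94, SE 0.89, adjusted p = 0.00257). TIP2 (Os01g0293100), a helix-loop-helix factor upstream of it, had 18.2, 21.8 and 25.4 in PL9, against 42.5, 41.7 and 42.5 in Nipponbare (difference -0.93, adjusted p = 0.00164). EAT1, the factor that activates the aspartic protease genes, averaged 59.8 in PL9 and 112 in Nipponbare and did not pass (adjusted p = 0.0642). UDT1, which acts early in tapetum differentiation, averaged 53.3 in PL9 and 57.0 in Nipponbare (adjusted p = 0.893). Higher in PL9 were MSP1, the receptor kinase that limits the number of spore mother cells (difference 0.77, adjusted p = 0.0434), and API5, which is needed for tapetal degeneration on time (difference 0.45, adjusted p = 0.0024). The MSP1 call ended in 5 of the 6 fits without 1 untreated library, with adjusted p up to 0.16 (all but the fit without Nipponbare library 3). Of the 6 measured regulators, 2 were thus higher, 2 lower and 2 did not pass. The shares over all genes tested were 13.4% higher and 18.6% lower.

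Genes of meiosis and of the mitotic cell cycle were higher in PL9 or did not pass. Of 7 measured meiosis genes, 4 were higher and none lower, with a median of 0.66. Over all genes tested, 13.4% were higher and 18.6% lower, with a median of -0.04. PAIR3 (Os10g0405500), needed for homologous chromosomes to pair, had 7.78, 3.96 and 1.23 in PL9, against 0.197, 0.234 and 0.239 in Nipponbare (difference 1.91, SE 0.32, adjusted p = 0.000236). The crossover genes MER3, a helicase, and MSH5 had differences of 0.66 (adjusted p = 0.00406) and 0.62 (adjusted p = 0.00824). PAIR1, which also acts in pairing, had 3.47, 2.19 and 0.153 in PL9 and 0.516, 0.187 and 0.288 in Nipponbare, so that PL9 library 3 lay below every Nipponbare library. Its call (difference 0.94, adjusted p = 0.0344) ended in 5 of the 6 fits without 1 untreated library, with adjusted p up to 0.225, and held without PL9 library 3. Summed over the 5 meiocyte markers measured, values were 27.8 to 40.1 in PL9 and 18.4 to 20.2 in Nipponbare. Most of these sums came from DMC1A and SPO11-1, which did not pass (adjusted p = 0.0555 and 0.0628). The marker MEL1 went the other way, averaging 1.25 in PL9 and 2.34 in Nipponbare, and did not pass either (adjusted p = 0.177).

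Of 6 cell cycle genes, 3 were higher and none lower, against 13.4% higher and 18.6% lower over all genes tested. CDKB2-1 (Os08g0512600), a mitotic cyclin-dependent kinase, had 23.4, 18.6 and 6.56 in PL9, against 2.33, 1.54 and 2.07 in Nipponbare (difference 2.37, SE 0.48, adjusted p = 0.00112). CYCA3-1, an A-type cyclin, had 6.32, 4.98 and 3.19 in PL9 and 0.165, 0.615 and 0.459 in Nipponbare (difference 2.02, adjusted p = 0.000756). CYCB2-1, a mitotic cyclin, had 20.0, 15.7 and 0.939 in PL9 and 0.544, 0.592 and 0.845 in Nipponbare, so that its difference of 2.41 rested on PL9 libraries 1 and 2, and its call ended without library 1 (adjusted p = 0.086) or library 2 (adjusted p = 0.0695). Whether anthers of both lines were at the same stage of development was not tested.

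**Figure D2:**
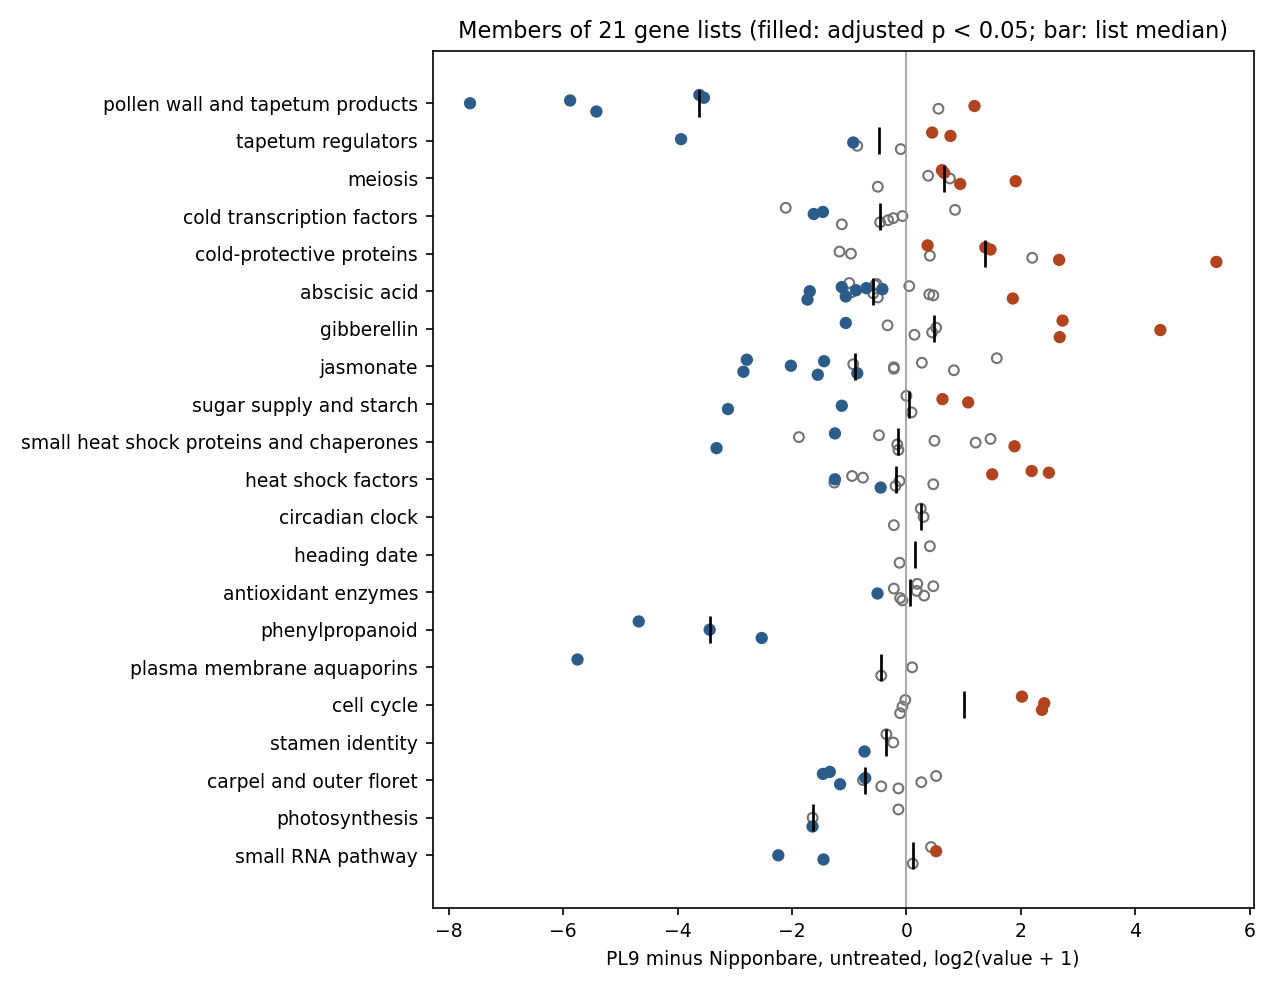
Each point is a measured member of 1 of 21 gene lists, placed by its PL9 minus Nipponbare difference on the log2(value + 1) axis. Filled points passed an adjusted p of 0.05 (red higher, blue lower in PL9), open points did not, and the black bar is the list's median, which runs from -3.62 for pollen wall and tapetum products to 1.38 for cold-protective proteins.

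The 3 measured phenylpropanoid genes, which supply flavonoids and wall phenolics, were lower in PL9. CHS1 (Os11g0530600), chalcone synthase, had 4.54, 3.13 and 2.05 in PL9, against 117, 98.7 and 98.3 in Nipponbare (difference -4.68, SE 0.84, adjusted p = 0.000408). The coumarate ligase genes 4CL5 and 4CL3 had differences of -3.44 (adjusted p = 0.00587) and -2.53 (adjusted p = 1.24e-06). With members on several rows read back, 5 of 6 were lower and 1 higher. Sugar supply was split. CIN2 (Os04g0413500), a cell wall invertase that splits sucrose outside the cell, had 2.44, 4.14 and 3.30 in PL9, against 28.4, 29.2 and 54.7 in Nipponbare (difference -3.12, adjusted p = 0.000238), and the sugar transporter gene SWEET11 was lower by a smaller amount (difference -1.13, adjusted p = 0.00994). Starch genes went the other way, ISA1, a debranching enzyme, by 0.63 (adjusted p = 0.0184, lost in 3 of 6 fits without 1 untreated library, up to 0.0881), and SSI, a starch synthase, averaging 34.2 ± 2.76 in PL9 and 15.7 ± 1.94 in Nipponbare (SD, n = 3 each, difference 1.08, adjusted p = 0.00122). In that list of 6 measured genes, 2 were higher, 2 lower and 2 did not pass. These counts and those of the phenylpropanoid genes stand against 13.4% higher and 18.6% lower over all genes tested. The aquaporin gene PIP2-4 (Os07g0448100), a plasma membrane water channel, had 0.642, 0.869 and 1.63 in PL9, against 80.3, 96.9 and 160.0 in Nipponbare (difference -5.76, adjusted p = 2.55e-06), and the other 2 measured members of its family did not pass.

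For gibberellin, the growth hormone needed for pollen development, 3 of 8 measured genes were higher and 1 lower. Over all genes tested, 13.4% were higher and 18.6% lower. With members on several rows read back, 3 of 10 gibberellin genes were higher and 3 lower. KAO (Os06g0110000), ent-kaurenoic acid oxidase of gibberellin synthesis, had 50.2, 32 and 13.5 in PL9, against 0.256, 0.271 and 0.5 in Nipponbare (difference 4.44, SE 0.97, adjusted p = 0.00197). CPS1, the first committed enzyme of the pathway, was higher by 2.68 (adjusted p = 0.00314). EUI1, which inactivates gibberellins, was higher too, at 69.9, 78.7 and 134 in PL9 and 15.9, 11.9 and 11 in Nipponbare (difference 2.73, adjusted p = 0.015, and 0.0572 without PL9 library 3). SLR1, the DELLA repressor of the pathway, had a difference of -1.06 (adjusted p = 0.0404), and no member was called lower after quantile normalization or in any fit without 1 untreated library (0.0629 to 0.126 for SLR1).

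For jasmonate, which acts in stamen maturation and anther opening, 6 of 12 measured genes were lower and none higher, with a median of -0.89. The shares over all genes tested were 18.6% lower and 13.4% higher, with a median of -0.04. TIFY10B (Os07g0615200), a repressor of the jasmonate response, had 37.8, 36.6 and 44.9 in PL9, against 176, 174 and 142 in Nipponbare (difference -2.02, SE 0.29, adjusted p = 4.12e-05). TIFY11D, a repressor of the same family, had a difference of -2.79 (adjusted p = 0.0063), and OPR1, an oxophytodienoate reductase, one of -2.85 (adjusted p = 4.34e-05). The synthesis gene AOS1, allene oxide synthase, was lower by a smaller amount (difference -1.55, adjusted p = 0.000194).

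For abscisic acid, 7 of 17 measured genes were lower and 1 higher, with a median of -0.58. Over all genes tested, 18.6% were lower and 13.4% higher, with a median of -0.04. The one higher was ABA8OX2 (Os08g0472800), a hydroxylase that breaks the hormone down, with 199, 157 and 118 in PL9, against 38.6, 39.7 and 47.3 in Nipponbare (difference 1.86, adjusted p = 0.00756). The synthesis gene ZEP, zeaxanthin epoxidase, had a difference of -1.06 (adjusted p = 0.00195), and NCED3, the cleavage enzyme of synthesis, one of -1.73 (adjusted p = 0.0433), which was lost in 13 alternative fits, up to 0.136. Leaving out PL9 library 3 or Nipponbare library 2 brought the lower members to 4, with SAPK4, SAPK5 and NCED3 among the calls that ended. Of the SAPK kinases, which carry the hormone's signal, SAPK2 was lower by the most, averaging 20.6 ± 4.07 in PL9 and 69.7 ± 18.6 in Nipponbare (SD, n = 3 each, difference -1.69, adjusted p = 0.00193). SAPK6, a kinase of the same family, averaged 29.0 in PL9 and 67.7 in Nipponbare (difference -1.13, adjusted p = 0.000753).

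Of the 9 measured genes in the list of cold-protective proteins, 5 were higher in untreated PL9 and none lower, with a median of 1.38. Over all genes tested, 13.4% were higher and 18.6% lower, with a median of -0.04. In cold none of the 9 was called, and the median was 0.43. Only 7.59% of all genes tested were called in cold, so none of 9 is near that share. Leaving out 1 untreated library left 3 or 4 higher, 4 of them without Nipponbare library 2 and 3 without any other, since COLD1 (difference 0.37, adjusted p = 0.0493) and mostly RAB16B fell out. RAB16A (Os11g0454300), a dehydrin that accumulates with abscisic acid and drying, had 1600.9, 631 and 552 in PL9, against 13.6, 60.0 and 7.06 in Nipponbare (difference 5.42, SE 1.41, adjusted p = 0.00669). In cold RAB16A had 0, 224 and 0.098 in PL9 and 0.193, 0 and 0.434 in Nipponbare. LTI6A, a small membrane protein, had 274, 308 and 139 in PL9 and 76.5, 111 and 63.8 in Nipponbare (difference 1.47, adjusted p = 0.00166), and TPP2, a trehalose phosphate phosphatase, was higher by 1.38 (adjusted p = 0.000266). RAB16B, whose gene lies beside RAB16A, was called with an adjusted p of 0.0469 and lost the call in 11 alternative fits, up to 0.197. The RAB16 genes are close copies, so the split of reads between them is uncertain. The cold transcription factors did not follow, with none of 9 higher, MYB2 (difference -1.62, adjusted p = 0.00464) and the leucine zipper gene BZIP52 (difference -1.46, adjusted p = 0.0249) lower, and none of the 5 DREB1 genes measured passing. The BZIP52 call held only without Nipponbare library 1 among the fits without 1 untreated library (up to 0.0808 in the others).

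The remaining lists were mixed, and their counts stand against 32.0% called over all genes tested. Of 11 heat shock factor genes, 3 were higher and 2 lower, and the 3 higher ones were all of the C class. Calls ended in 4 of the 6 fits without 1 untreated library for HSFC1B (up to 0.164), in 5 for HSFA2B (up to 0.145), and without PL9 library 1 for HSFB1 (0.0793). HSFC2A, a factor of that class, had 47.8, 45.2 and 13.3 in PL9 and 3.40, 13 and 1.92 in Nipponbare (difference 2.49, adjusted p = 0.00168). Among 10 chaperone genes, 1 was higher and 2 lower. HSP16.9B, a small heat shock protein, had 0, 0.195 and 0 in PL9, against 8.49, 8.40 and 12.5 in Nipponbare (difference -3.32, adjusted p = 0.00105). Its neighbour HSP16.9C was called in the other direction (difference 1.89, adjusted p = 0.0267, lost without PL9 library 1 or Nipponbare library 2 or 3, up to 0.0984), and these near-identical copies may share reads. Of the 5 small RNA genes measured, the Argonautes AGO18 (difference -2.24, adjusted p = 0.00317) and AGO2 (difference -1.45, adjusted p = 0.000237) were lower, and RDR2, an RNA-dependent RNA polymerase, was higher (difference 0.52, adjusted p = 0.0202, lost in 4 of 6 fits without 1 untreated library, up to 0.0997). The floral organ genes MADS5, MADS34, MADS6 and MADS8 were lower, 4 of the 9 carpel and outer floret genes measured, with differences from -0.72 to -1.46. MADS6 lost its call without PL9 library 1 (0.0692). Of the 3 stamen identity genes, MADS2 alone passed (difference -0.74, adjusted p = 0.0139), and not without PL9 library 1 or Nipponbare library 2 (0.0721 and 0.0623). PETE, plastocyanin, was the only one of 3 photosynthesis genes to pass (difference -1.65, adjusted p = 0.00546), and APX4 the only one of 8 antioxidant genes (difference -0.52, adjusted p = 0.0354, lost in 4 of 6 fits without 1 untreated library, up to 0.19). None of the 3 clock and 2 heading date genes measured passed, the smallest adjusted p being 0.206 for ELF3-1 and 0.189 for PHYC. Reading back members on several rows gave more calls in these lists, except among the small RNA genes. Of 17 heat shock factor genes, 3 were then higher and 5 lower, and of 15 chaperone genes 3 were higher and 2 lower. Lower were 3 of 5 stamen identity, 4 of 7 photosynthesis and 3 of 11 antioxidant genes, and none of these was higher. Of 8 clock genes 1 was then higher and 1 lower, and of 6 heading date genes 2 were higher and none lower. Over all lists, 26 of 147 measured members were higher and 42 lower, with a median of -0.22.

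The largest single differences fell on genes without a checked name. Os07g0655851 (chromosome 7) had 0, 1.72 and 0 in PL9, against 2711.4, 1281.5 and 2304.6 in Nipponbare (difference -10.49, SE 1.22, adjusted p = 4e-06), and its neighbour Os07g0655800 nearly the same size (difference -10.26, adjusted p = 1.56e-06). These identifiers adjoin each other, and whether the counting kept the strands apart is not given in the sources used here, so their reads may be shared. Os09g0525500, Os04g0310800 and Os03g0168600 followed with differences of -9.64, -9.46 and -8.79. They were entries of the pollen wall and tapetum list above whose names could not be checked. In the other direction, Os03g0782350 had 1139.8, 968 and 42.7 in PL9, against 0.945, 0.488 and 1.66 in Nipponbare (difference 7.53, SE 1.52, adjusted p = 0.00102). Its lowest PL9 value, in library 3, was still above all 3 Nipponbare values. Os12g0420100 and Os02g0725500 showed the same order within PL9, with 50.1 and 23.4 in library 3, against 186 and 354 in library 2. Os06g0684500 was steadier, with 207, 184 and 128 in PL9, against 2.22, 1.61 and 1.38 in Nipponbare (difference 5.97, SE 0.50, adjusted p = 5.23e-08), and it was called in cold as well (difference 4.97, adjusted p = 8.54e-07). Of the other identifiers chosen by size, Os10g0345900, Os02g0135000 and Os03g0782300 were higher in PL9 by 6.36 to 6.74, and Os03g0683500 and Os01g0127500 had differences of -7.93 and -7.73.

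The cold libraries gave a second measurement of the line difference under another treatment. The untreated differences were means of other samples, but all 24 libraries entered 1 fit and shared its estimate of the spread, so the calls of both comparisons were not independent. Fitted on the 6 untreated libraries alone, 7222 genes were called, 6028 of them (83.8% of the 7191) shared. In the cold comparison of the 24-library fit, 1708 genes (7.59%) were called, 691 higher and 1017 lower in PL9. Of the genes called untreated, 5869 (81.6%) had the same sign in cold, against 60.0% of the genes not called untreated. Their median difference, taken in the direction of the untreated call, was 0.36 in cold, whereas the median size untreated was 1.15. The untreated values chose these genes, which favours the larger untreated size. Over all genes tested, the median absolute difference was 0.43 untreated and 0.3 in cold. Called in both treatments with the same direction were 1055 genes, which is 14.7% of the untreated calls and 61.8% of the cold calls, and 16 were called in opposite directions. These cold counts leaned on single libraries, as measured after the data were seen. Cold calls numbered 3268 without PL9 cold library 2, 872 without PL9 cold library 1, 985 without PL9 cold library 3 and 819 without Nipponbare cold library 3. The calls shared with the untreated comparison numbered 2172, 589, 686 and 595 in the same order.

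CYP703A3 and OsC4, both lower in untreated PL9, varied widely among the cold PL9 libraries. CYP703A3 stood at 0.418, 1404.9 and 226 in the cold PL9 libraries, against 499, 955 and 2195.7 in cold Nipponbare (adjusted p = 0.129). OsC4 had 1681, 35612.1 and 14107.8 in cold PL9 and 55274.3, 32388.5 and 86245 in cold Nipponbare (adjusted p = 0.0757). In both genes PL9 library 1 was the lowest and PL9 library 2 lay within the Nipponbare range. RAFTIN1 of the same list had 3840.2, 3534.3 and 3449.2 in cold PL9, and OsC6 had 32749.8, 22079.7 and 31459.7, a smaller spread than in OsC4. Among list members, PIP2-4 (cold difference -2.59, adjusted p = 0.0174), CIN2 (-1.87, adjusted p = 0.0352), MADS5 (-1.08, adjusted p = 0.0239) and MADS6 (-1.42, adjusted p = 0.00983) were called lower in both treatments, and API5 was called higher in both (0.34 in cold, adjusted p = 0.0474). Each of these 5 cold calls ended in at least 2 of the 6 fits without 1 cold library, including those without PL9 library 1 and Nipponbare library 3, with adjusted p up to 0.12 for PIP2-4, 0.2 for CIN2, 0.136 for MADS5, 0.0744 for MADS6 and 0.187 for API5. A test of the change in line difference between treatments called 976 genes (4.34%). Of these, 891 were called untreated, and in 864 the difference was smaller in cold or had turned. The untreated call chose these genes for a large untreated difference, which by itself favours a smaller one in cold. The count of 864 therefore cannot separate selection from treatment.

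**Figure D3:**
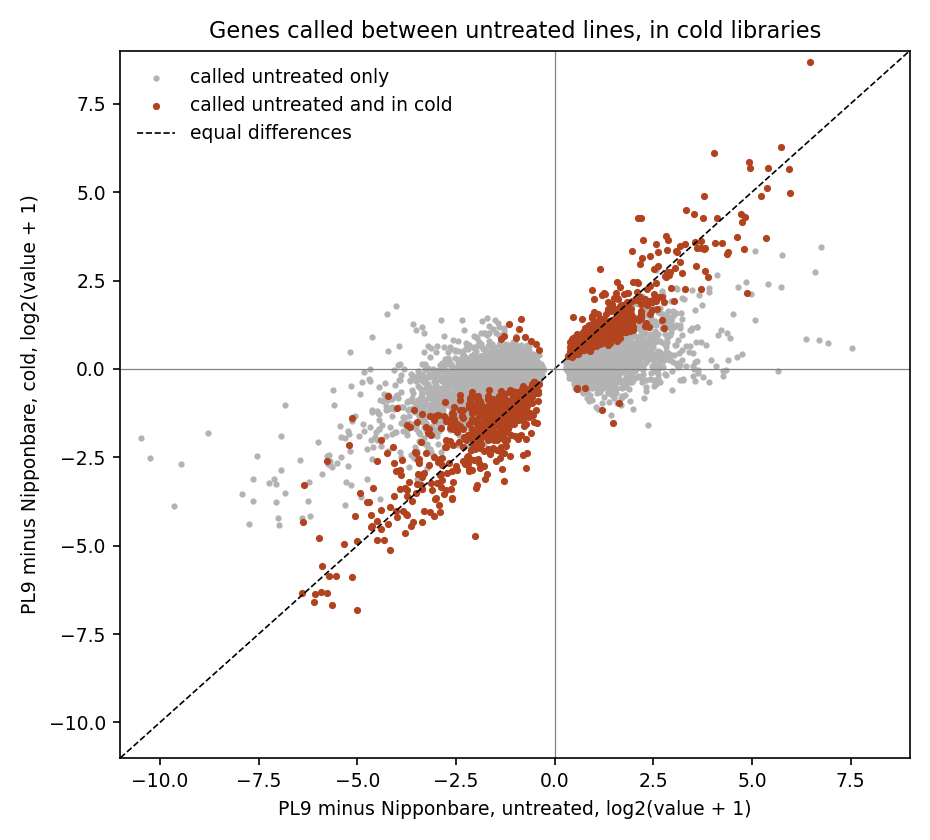
Each point is 1 of the 7191 genes called between the untreated lines, with its PL9 minus Nipponbare difference untreated on the x axis and in cold on the y axis, both on the log2(value + 1) scale. Red points were also called in cold, 1055 in the same direction and 16 in the opposite one. Many red points lie near the dashed line of equal differences, while the genes lowest in untreated PL9 lie above it.

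Some identifiers were read in one line and were at or near 0 in the other. With a value of at least 5 in all 3 libraries of one line and at most 0.1 in all 3 of the other, 15 genes were on in PL9 alone of the pair and 63 in Nipponbare alone. All 78 were called, and since values of this comparison chose them, that count supports nothing. Os11g0413800 (chromosome 11) had 72.4, 49.4 and 62.5 in PL9 and was listed at 0 in every Nipponbare library. In cold it had 53.9, 42.2 and 53.2 in PL9 and was again listed at 0 in Nipponbare. Os01g0149400 was listed at 0 in all 6 PL9 libraries, untreated and cold, and had 57.6, 88.8 and 60.6 in untreated Nipponbare. Os12g0550600 was likewise listed at 0 in all PL9 libraries, with 51.7, 49.2 and 80.4 in untreated Nipponbare. Os06g0597250 had 0.0445, 0.0735 and 0 in untreated PL9, against 108, 102 and 52.0 in untreated Nipponbare, and 0, 0.0895 and 0 in cold PL9, against 9.77, 8.79 and 8.62 in cold Nipponbare. Os02g0528750 was listed at 0 in untreated PL9, with 61.7, 51.2 and 73.1 in untreated Nipponbare. Os10g0360600 and Os04g0326300, on in PL9 at 23.0 to 41.6 and 22.2 to 31.6, were listed at 0 in Nipponbare in both treatments, and Os12g0244400 had 102, 59.6 and 24.8 in PL9 and at most 0.0307 in Nipponbare. Under the same limits in cold, 10 of the 15 and 18 of the 63 were again on in the same line and near 0 in the other. The others included Os03g0683300, which had 0, 0.0601 and 0 in untreated PL9 and 0.749, 1784.7 and 254 in cold PL9. Chromosome 11 held 8 of the 15 and 12 of the 63, and 5.96% of the genes tested. Reads were quantified against a build made from Nipponbare, and the part of sequence differences between the lines in these values was not tested.

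**Figure D4:**
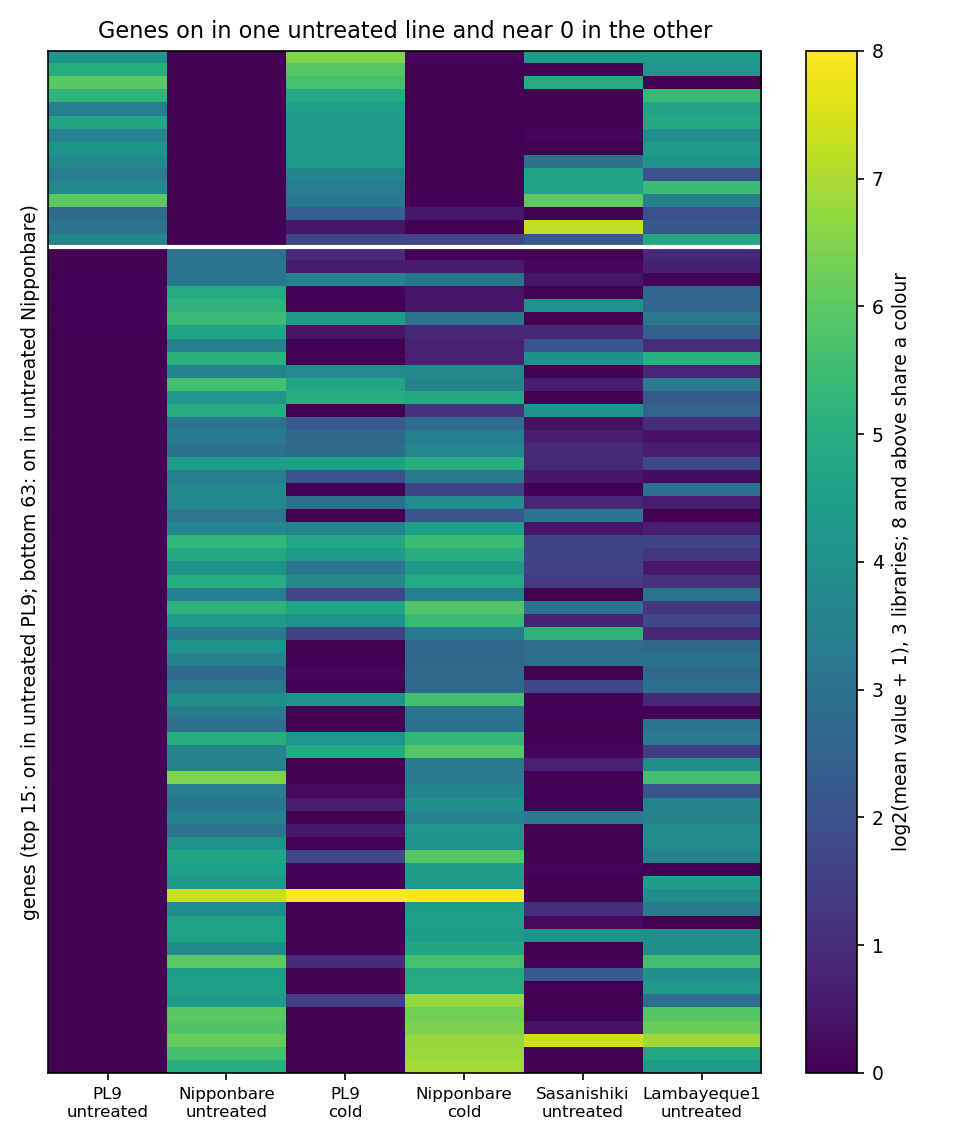
Each row is 1 of 78 genes that were on in one untreated line and near 0 in the other, and the colour gives log2(mean value + 1) over 3 libraries in each of 6 groups. The top 15 genes are on in PL9 and the bottom 63 in Nipponbare, and the PL9 cold column stays dark for part of the bottom rows and lights up for the rest.

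The other untreated lines of the study, Sasanishiki and Lambayeque1, were placed beside both lines for each called gene by the nearer mean. Sasanishiki lay nearer PL9 in 4991 of the 7191 called genes (69.4%) and Lambayeque1 in 3268 (45.4%). These shares were taken among called genes only, and none was taken over all genes tested to set beside them. Both were nearer PL9 in 32.4% and both nearer Nipponbare in 17.5%. Among the 1055 genes called in both treatments, Sasanishiki was nearer PL9 in 69.5% and Lambayeque1 in 33.1%. CYP703A3 averaged 0.573 in Sasanishiki and 32.4 in Lambayeque1, and PIP2-4 averaged 0.807 and 38.3 in the same order, so that Sasanishiki was near the PL9 level of both genes. In 938 of the called genes Lambayeque1 was nearer PL9 and Sasanishiki nearer Nipponbare. Os11g0471100, for example, had 42.7, 35.7 and 32.2 in PL9, averaged 41.7 in Lambayeque1, and was listed at 0 in Nipponbare and Sasanishiki.

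Along the chromosomes, called genes were spread widely. In 220 windows of 100 consecutive identifiers tested, between 21 and 56 genes were called, with a median of 31. Genes called in both treatments were less even, from 0 to 23 per window with a median of 4. The window with the most untreated calls ran from Os07g0537600 to Os07g0565000 on chromosome 7, with 56 called and 10 called in both treatments. It held Os07g0543300, with 317, 534 and 167 in PL9, against 3.33, 2.04 and 2.13 in Nipponbare (difference 6.47, SE 0.40, adjusted p = 6.37e-10), and in cold 1510.5, 884 and 1245.8 in PL9, against 2.25, 1.83 and 1.62 in Nipponbare. It also held Os07g0556800, with 0, 0 and 0.114 in PL9 and 384, 96.5 and 237 in Nipponbare. The next window, from Os01g0138000 to Os01g0155000 near the start of chromosome 1, had 49 called and 23 called in both treatments. Os01g0152700 in that window had 4.45, 0 and 3.65 in PL9, against 241, 216 and 142 in Nipponbare, and nearly the same gap in cold (difference -6.06 untreated and -6.36 in cold). The window at the start of chromosome 1, from Os01g0100100 to Os01g0118600, had 20 called in both treatments.

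**Figure D5:**
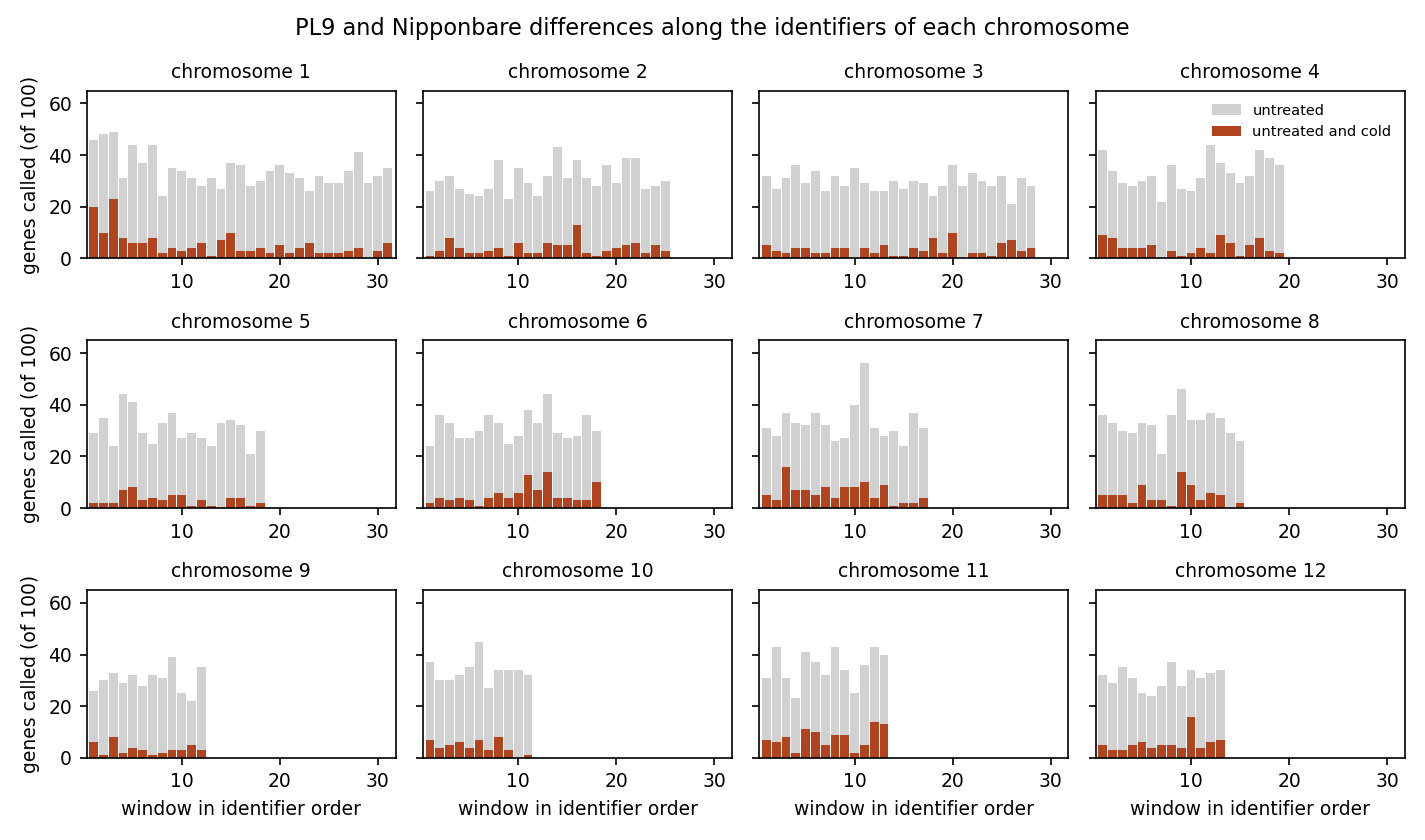
Bars give the number of genes called out of 100 in each window of consecutive identifiers, per chromosome, grey for the untreated comparison and red for genes called untreated and in cold. Grey bars run from 21 to 56, and red bars reach 20 and 23 in 2 windows at the start of chromosome 1.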

How the data were processed

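Each deposited file gives a library's RNA abundance as a signal that the headers call TPM. The submitters' processing notes name kallisto 0.46.2, sleuth 0.30.0 and the genome build IRGSP-1.0. Libraries were prepared by a strand-specific method, per the labels' protocols. The files hold no counts, so depth and counting error are unknown. Each file has 44785 rows and 37910 identifiers. The 32511 identifiers on 1 row were used, because values of the other 5399 are repeated over rows across libraries, and reading them back was an alternative.

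Genes that reached 1 in 3 or more libraries were fitted on log2(value + 1) with limma 3.58.1 (8 group means, 24 libraries, eBayes with a trend) in R 4.3.3, with two-sided p-values adjusted by Benjamini-Hochberg over 22495 genes at 0.05. This scale understates the change of low genes. The fit was tested on simulated data. Python 3.11.15, pandas 2.3.3, numpy 2.4.6 and matplotlib 3.10.9 were used. Alternatives changed the pseudocount, filter, scaling, variance trend, libraries fitted and replicate block, and left out each library.

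The comparison and the gene lists were chosen with earlier results of these data known, and the lists were written after the files were opened. List genes were named only where a reference table of another assembly (ASM3414082v1) gives the symbol on the same chromosome and within 2% of the relative gene order, which held for 249 list entries. This was stricter than planned, since 114 entries whose names the table lacks were left out. Named genes were the 8 largest differences each way among called genes with no overlap, the 8 largest each way with a checked name, up to 3 called members per list or else its smallest p, the 5 highest genes on in 1 line alone each way, and the 2 largest differences in each of the 2 windows with most calls. Other list members were named after their values were seen. No sequences or coordinates were used.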

Additional observations from a re-analysis of the deposited data

Results flagged for a closer look

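For 15 of the genes in the text, the PL9 minus Nipponbare difference itself differed between cold and untreated anthers at an adjusted p under 0.05 in limma. Values are the cold difference minus the untreated difference on the log2(value + 1) scale. Genes were named mainly for their untreated difference, which by itself favours a smaller difference in cold. Among the genes lower in untreated PL9, it came to 8.53 for Os07g0655851, 7.73 for Os07g0655800, 6.99 for Os03g0168600 and 3.05 for Os06g0597250. For list members lower in untreated PL9 it was 3.01 for OPR1, 2.17 for TIFY10B, 1.82 for 4CL3, 1.3 for AGO2, 1.19 for ZEP and 1.15 for SAPK6. Among genes higher in untreated PL9 it was -6.19 for Os12g0420100, -2.0 for CYCA3-1, -1.84 for PAIR3 and -0.94 for RDR2. Os07g0543300 was higher in PL9 in both treatments and differed further in cold, by 2.21. OPR1 shows the pattern in its values, with 0.175, 2.06 and 0 in untreated PL9 and 15.8, 15.5 and 3.83 in untreated Nipponbare, against 0.827, 0.407 and 0 in cold PL9 and 0.228, 0 and 0.502 in cold Nipponbare.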

How the results depend on the processing

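The untreated count of 7191 calls stayed within 1.5 times under every alternative run, from 5235 of 15760 genes under a stricter filter to 8724 of 27655 genes with repeated rows read back, and leaving out 1 untreated library gave 5343 to 5969. The replicate block gave 6874 calls, 94.4% of the main calls among them. The deviations of same-numbered libraries correlated at -0.004, -0.017 and 0.173, and those of other-numbered libraries at -0.148 to 0.167. With 3 libraries in each line, these values cannot decide whether the numbers pair the samples. None of the 79 genes chosen by the naming rules reversed, and 15 of the 77 called among them lost their call in at least 1 setting. Of the list members named otherwise, COLD1, SLR1, SAPK4, SAPK5, ISA1, HSFA2B and HSFB1 also lost theirs in fits without 1 untreated library. The cold counts of 1708 calls, 1055 of them shared, came to 872 and 589 without PL9 cold library 1, 3268 and 2172 without PL9 cold library 2, 985 and 686 without PL9 cold library 3, and 819 and 595 without Nipponbare cold library 3. The cause was not tested. Leaving out cold libraries was chosen after seeing the data. With repeated rows read back, 11 of 18 jasmonate genes were lower and 1 higher, and 6 of 11 meiosis genes higher. Depth limits cannot be given.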
